A study of Mus musculus with 2 samples.

Results

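The SLC25 family is the set of nuclear-encoded carriers that move metabolites, nucleotides, cofactors and ions across the inner mitochondrial membrane. Its members were taken as every gene symbol made of Slc25a and a number, which gave 47 genes of the 24421 listed. They were compared between 2 libraries of 3T3-L1, a mouse preadipocyte line that becomes adipocytes under hormones. The control culture was untreated, and the other received DF, a preparation of several herbs titled DF-GA70, in its medium until harvest. Both cultures were at passages 10 to 13, with a strain background given as C57BL/6, and were differentiated alike: 2 days of insulin (1 µg/mL), dexamethasone (0.25 µM) and IBMX (0.5 mM) in 10% fetal bovine serum, then insulin with serum. How much DF was used, and on which day cells were collected, is not stated in the labels. Each group is 1 library from this single cell line, so no test between the groups was run and no value carries a replicate error.

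Each carrier of this family is built from repeats of a short membrane unit and usually exchanges one substrate for another. Together they supply phosphate and ADP for ATP synthesis, bring in fuels such as acylcarnitines and amino acids, and let citrate leave for fatty acid synthesis in the cytosol. White fat cells use the citrate and dicarboxylate carriers for lipid synthesis, and brown fat cells use carriers that feed or uncouple respiration. The proteins are made in the cytosol and are inserted by the TIM22 translocase.

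The deposited values are log2 expression per gene from the 3' ends of transcripts, so they are not divided by transcript length. Their sorted values are nearly the same in both files, and a value therefore reflects a gene's rank within its library. The depth is unknown and no counting interval can be given. Low values come in steps. Slc25a24 and Slc25a38, for example, had the identical value of 6.26 with DF, one shared by 24 genes. Linear values below are 2 to the power of the deposited value. The cells carried adipocyte markers in both libraries: all 10 of the list reached the level floor of 8.18 (log2). This floor is the median of all values above 0. With DF, 1 of the 10 was higher by 1.5-fold and 0 lower, beside 10.2% and 10.9% of all genes at the floor. The higher one was Cidec, of the lipid droplet (1.59-fold). Their summed linear value was 584190 in the control and 658080 with DF. Of 6 preadipocyte markers 4 reached the floor, and 3 of them (Dlk1, Pdgfra and Ly6a) were lower, while Pdgfrb was at 10.51 and 10.58. The list's summed linear value was 101114 and 38097, most of it from Dlk1 (16.55 and 15.10 in log2), and Cd34 was listed at 0 in both. Of the 8 brown fat markers, Ucp1, Prdm16 and Zic1 were listed at 0 in both libraries and 2 reached the floor. Of these, Cox8b, a cytochrome oxidase subunit, was higher with DF (8.52 to 10.32), and Ppargc1a was slightly lower (9.45 to 9.26). The summed linear value of this list was 1267 and 2095, a rise that came mainly from Cox8b. None of 7 macrophage and none of 5 endothelial markers reached the floor. Their summed linear values were 35.6 and 63.5, and 89.8 and 11.5, with Adgre1, Kdr, Tek and Vwf listed at 0 in both libraries. The part of these shifts in the carrier values was not tested. In such bulk samples, fewer cells of a type and less RNA per cell cannot be told apart.

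The carriers as a family stood at nearly the same level in both libraries, and the share of them that differed was close to that of all genes. The 5 that differed by at least 1.5-fold were Slc25a20 and Slc25a44, higher with DF, and Slc25a37, Slc25a40 and Slc25a13, lower with DF. Of the 47 members, 25 reached the level floor in at least 1 library. A further 11 were above 0 in both but below the floor, 3 were listed at 0 with DF only, and 8 (17.0%) were listed at 0 in both. Of all genes, 44.3% were listed at 0 in both, and fewer were above 0 with DF (12337) than in the control (13013). Among the 25, 2 were higher (10.2% of all 6761 genes at the floor) and 3 lower (10.9% of those genes). Together these are 5 of 25 members (20%), against 21.1% of all genes. The median difference, DF minus control, was 0.04 log2 units over these members and 0.01 over all genes at the floor. The median size of the difference without its sign was 0.31 log2 units for the members and 0.31 for all genes. At 2-fold, 1 member was higher and 1 lower, where 2.56% and 3.21% of all genes were. The share of the family in the sum of all linear values was 0.298% in the control and 0.320% with DF.

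**Figure D1:**
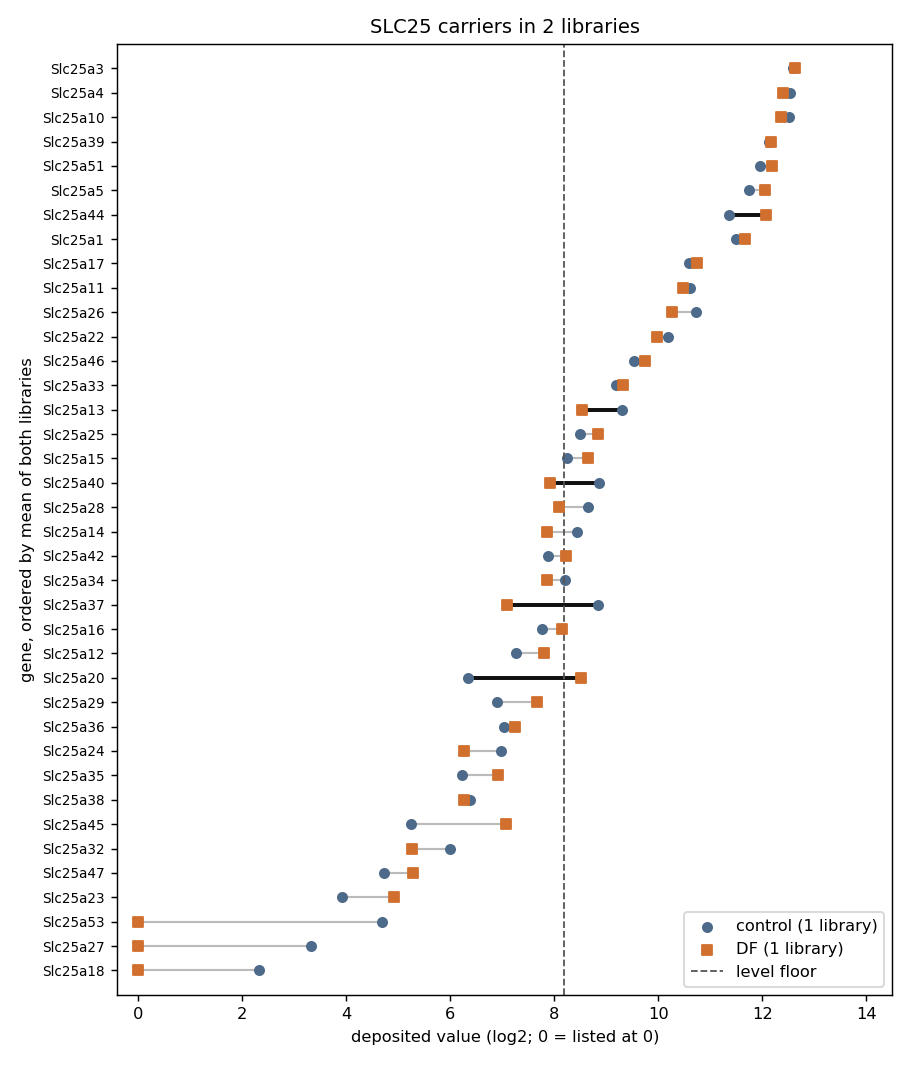
Deposited log2 value (x axis) of 38 SLC25 genes above 0 in at least 1 library, ordered by mean (y axis); circles are the control library, squares the DF library, black lines join the values of the 5 members beyond 1.5-fold and the dashed line is the level floor of 8.18. Most abundant members lie close together, except Slc25a44; Slc25a20, Slc25a37 and Slc25a40 are among the 7 that cross the floor, and 3 genes are listed at 0 with DF.

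Of the 25 members, 7 reached the floor in only 1 of the libraries, and among the 5 beyond 1.5-fold these were Slc25a20, Slc25a37 and Slc25a40. A gene that passes in that way tends to differ by construction. With the floor required in both libraries, 1 of 18 members was higher (Slc25a44) and 1 lower (Slc25a13), where 15.8% of all genes were beyond 1.5-fold. Among genes at the floor with a mean level of 6 to 8, where Slc25a20 and Slc25a37 lie, 92.6% of 204 were beyond 1.5-fold. At a mean level of 8 to 9 the share was 27.2% of 1765 genes, and 2 of the 8 members there, Slc25a13 and Slc25a40, were beyond it. At 11 to 12, where Slc25a44 is 1 of 3 members, the share was 13.3% of 845 genes. No member was beyond 1.5-fold at the other levels, with 2 members at 9 to 10, 4 at 10 to 11 and 6 at 12 to 14, where 19.9%, 14.7% and 11.5% of all genes were.

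**Figure D2:**
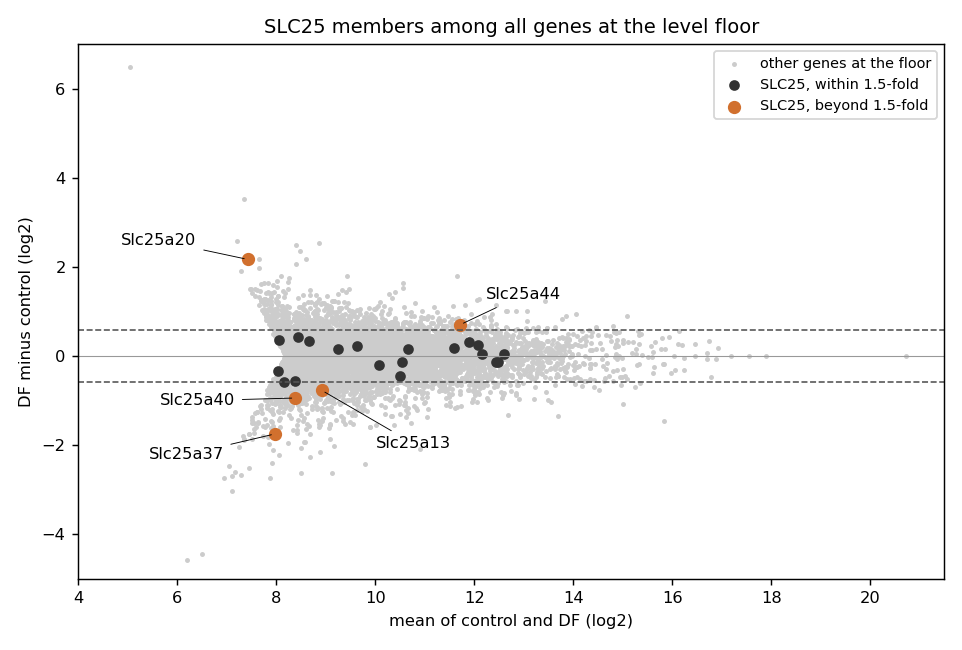
DF minus control (log2, y axis) against the mean of both libraries (log2, x axis) for all genes at the level floor and above 0 in both (grey), the SLC25 members within 1.5-fold (black) and the 5 beyond it (orange, named); dashed lines mark 1.5-fold. Slc25a20 at 2.17 and Slc25a37 at -1.75 lie at the low end of the level scale, where the grey points are spread widest, and Slc25a44 at 0.70 lies among abundant genes.

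The carriers that serve ATP synthesis differed little. Slc25a3, the phosphate carrier that feeds ATP synthase, stood at 12.59 in the control and 12.63 with DF. Slc25a4 (ANT1), the ADP/ATP exchanger typical of heart and muscle, was at 12.54 and 12.41. Slc25a5 (ANT2), its widely expressed relative, was at 11.75 and 12.06, a 1.24-fold higher value with DF. None of the 3 reached 1.5-fold. Slc25a4 thus held 63.4% of the summed linear value of both exchangers in the control and 56.0% with DF, while their sum was 9394 and 9690. Slc25a5 has processed pseudogenes, and 17.6% of the 75-base words in its last 500 bases also occur in annotated pseudogene transcripts, so its value is less certain. Slc25a31 (ANT4), the exchanger of the male germ line, was listed at 0 in both libraries.

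Of the ATP-magnesium/phosphate carriers, which calcium regulates, Slc25a25 was the only member at the floor, at 8.50 in the control and 8.83 with DF. Slc25a24 was at 6.98 and 6.26, and Slc25a23 at 3.92 and 4.92, both below the floor in both libraries. The members of this group above 0 thus differed in sign, with 2 higher and Slc25a24 lower. Slc25a41 was listed at 0 in both.

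The carriers for citrate and dicarboxylates, which link mitochondria to lipid synthesis in white fat, were abundant and close to equal. Slc25a1, which exports citrate, stood at 11.50 in the control and 11.68 with DF. Slc25a10, which exchanges malate or succinate for phosphate, was at 12.50 and 12.36. Slc25a11, the oxoglutarate-malate exchanger, was at 10.61 and 10.48. All 3 differences lay between -0.15 and 0.18 log2 units. Slc25a21, the oxodicarboxylate carrier, was listed at 0 in both. Of 11 enzymes that work on citrate, malate and aspartate around these carriers, 10 reached the floor. Of these, 1 was higher and 1 lower, beside 10.2% and 10.9% of all genes at the floor. Got1, the cytosolic aspartate aminotransferase, was at 9.99 and 10.83, 1.79-fold higher with DF. Idh2, the mitochondrial NADP-dependent isocitrate dehydrogenase, was at 12.08 and 10.96, 2.18-fold lower. Mdh2, the mitochondrial malate dehydrogenase, was the most abundant of the list, at 15.10 and 15.56. The list's median difference at the floor was 0.21 log2 units, beside 0.01 for all genes.

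The aspartate and glutamate carriers included one of the lower members. Slc25a13 (citrin), a calcium-regulated aspartate-glutamate exchanger of the malate-aspartate shuttle, stood at 9.30 in the control and 8.53 with DF, which is 1.71-fold lower. It reached the floor in both libraries, and 6.23% of genes had a more negative difference. It lay within 1.5 robust SDs of the genes at its level, which had a robust SD of 0.52 log2 units, so a limit set that way does not count it. Its relative Slc25a12 (aralar), the form of brain and muscle, was below the floor at 7.27 and 7.80, in the other direction. The share of Slc25a12 in the pair's summed linear value was 19.6% in the control and 37.6% with DF, and that sum was 786 and 593. Slc25a22, a glutamate carrier, was at 10.18 and 9.97. Slc25a18, the other glutamate carrier, was at 2.32 in the control and listed at 0 with DF.

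Slc25a20 had the largest difference of the 36 members above 0 in both libraries. It encodes the carnitine-acylcarnitine carrier, which brings long-chain fatty acids into the matrix as carnitine esters. Its value was 6.34 in the control and 8.51 with DF, or 81.0 and 363.5 on the linear scale, 4.49-fold higher with DF. It reached the floor through the DF library only, and its control value was shared by 16 genes. The robust SD of the difference among all genes with a mean level of 6 to 8 was 0.74 log2 units. With 16 added to the linear values before the logarithm the difference was 1.97, and with 100 it was 1.36.

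Most of the genes at the floor that work beside Slc25a20 were within 1.5-fold. Of 11 genes of the carnitine shuttle and long-chain oxidation, 6 reached the floor, with 2 higher and 0 lower, beside 10.2% and 10.9% of all genes. The median at the floor was 0.17, beside 0.01 for all genes. Cpt2, which turns the imported acylcarnitine back into acyl-CoA on the inner membrane, stood at 10.66 in the control and 11.31 with DF, which is 1.57-fold higher. Acadvl, which oxidises the longest acyl chains, was at 12.35 and 12.99, 1.55-fold higher. Acsl1, which activates fatty acids, was at 15.78 and 15.93, and Crat, carnitine acetyltransferase, at 12.01 and 11.99. The outer-membrane step was below the floor in every form, and its forms differed in sign. Cpt1a, the liver-type carnitine palmitoyltransferase, was at 6.69 and 6.12. Cpt1b, the muscle type, was at 5.37 and 4.42, and Cpt1c, the brain type, at 7.41 and 8.04.

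Slc25a44 was the other higher member. It carries branched-chain amino acids into mitochondria and was described in mouse brown fat. Its value was 11.36 in the control and 12.07 with DF, or 2637 and 4286 on the linear scale, 1.63-fold higher. It was above the floor in both libraries, and 93.0% of genes had a smaller difference. Of 15 genes of branched-chain amino acid breakdown, 14 reached the floor, with 3 higher and 0 lower, beside 10.2% and 10.9% of all genes. The 3 were Mccc1 (1.69-fold) and Mccc2 (1.56-fold), the subunits of methylcrotonyl-CoA carboxylase, and Ivd (1.51-fold), isovaleryl-CoA dehydrogenase, all in the leucine branch. Mccc2, at 7.58 in the control and 8.22 with DF, reached the floor in the DF library only. Bckdhb, a subunit of the branched-chain keto acid dehydrogenase, was at 12.95 and 12.99, and Bcat2, the mitochondrial transaminase, at 12.18 and 12.64. The list's median at the floor was 0.05 log2 units.

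The other amino acid and methyl-donor carriers stayed within 1.5-fold or below the floor. Slc25a15, the ornithine carrier of the urea cycle, stood at 8.24 in the control and 8.66 with DF. Slc25a26, which imports S-adenosylmethionine, was at 10.72 and 10.27; its last 500 bases overlap Lrig1 on the opposite strand, and 16.4% of their 75-base words also occur there. Slc25a29, a carrier of basic amino acids, was below the floor at 6.91 and 7.68. Slc25a38, the glycine carrier of heme synthesis, was at 6.39 and 6.26. Slc25a2 was listed at 0 in both.

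The carriers of coenzymes, nucleotides and vitamins were all within 1.5-fold where they reached the floor, and the 4 described first had a higher value with DF. Slc25a51, the NAD carrier identified in human cells, had a value of 11.96 in the control library and 12.19 under DF. Slc25a17, a peroxisomal carrier of coenzyme A and other cofactors, was at 10.59 and 10.75. The pyrimidine nucleotide carrier Slc25a33 was at 9.18 and 9.33, and Slc25a42, which imports coenzyme A, at 7.87 and 8.23. The differences of these 4 ranged from 0.15 to 0.36 log2 units. Below the floor, Slc25a16, a candidate coenzyme A carrier, was at 7.76 and 8.16, and Slc25a36, the other pyrimidine nucleotide carrier, at 7.03 and 7.25. Slc25a32, the folate and FAD carrier, was at 5.99 and 5.27.

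The iron and glutathione carriers held both other lower members. Slc25a37 (mitoferrin 1), which brings iron into mitochondria and is best known from red cell precursors, stood at 8.85 in the control and 7.10 with DF. On the linear scale these are 460 and 137, 3.36-fold lower with DF, and only the control value reached the floor. Slc25a28 (mitoferrin 2), the form of most other tissues, was at 8.66 and 8.09, 1.49-fold lower and just inside the limit. Slc25a28 held 46.8% of the pair's summed linear value in the control and 66.5% with DF. The sum itself was 864 and 409, a ratio of 0.473, and both members reached the floor in the control library only. Slc25a40, a carrier linked to glutathione and also at the floor in the control only, was at 8.85 and 7.91, 1.92-fold lower with DF. Its abundant relative Slc25a39, the mitochondrial glutathione importer, was at 12.13 and 12.17. The summed value of this pair was 4936 and 4854, with Slc25a39 at 90.6% and 95.04% of it.

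**Figure D3:**
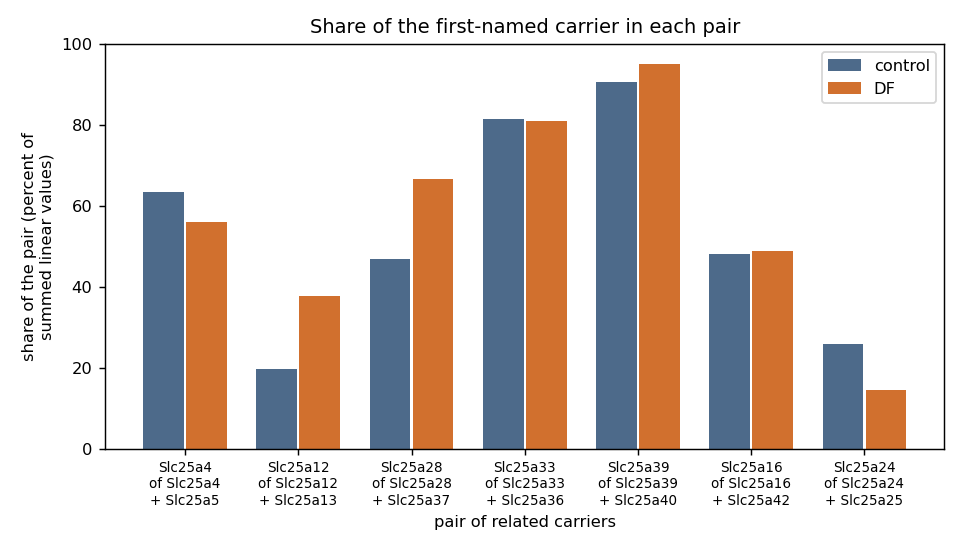
Share (percent, y axis) of the first-named carrier in the summed linear value of 7 pairs of related carriers (x axis), in the control and the DF library, 1 library each. The share moved most for Slc25a28 with Slc25a37 (46.8% to 66.5%) and Slc25a12 with Slc25a13 (19.6% to 37.6%), and least for Slc25a33 with Slc25a36 (81.6% to 80.8%) and Slc25a16 with Slc25a42 (48.0% to 48.8%).

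Of the 10 pairs examined, 3 are not drawn: in Slc25a18 with Slc25a22 and in Slc25a14 with Slc25a30 one gene was listed at 0 with DF, and Slc25a23 with Slc25a24 lay below the floor.

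Among the carriers named for likeness to uncoupling proteins, Slc25a14 stood at 8.44 in the control and 7.86 with DF, a difference of -0.58, just short of the limit. Slc25a27 was at 3.32 in the control and listed at 0 with DF, and Slc25a30 was listed at 0 in both. The uncoupling proteins proper carry other symbols. Ucp1, the heat-producing protein of brown fat, was listed at 0 in both libraries, and Ucp2, found in many tissues, was at 7.71 and 7.31. Ucp3, the muscle form, was near the bottom of the scale at 2.13 and 4.42. The outer-membrane relatives Mtch1 and Mtch2, the latter described in human cells as an insertase for other membrane proteins, were at 11.33 and 10.85, and at 13.02 and 13.37. Of these 5 relatives 2, Mtch1 and Mtch2, reached the floor, and 0 were beyond 1.5-fold there.

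Slc25a46, an outer-membrane member that takes part in mitochondrial fission and fusion, stood at 9.52 in the control and 9.74 with DF. Of the 8 members grouped here as without a settled substrate, Slc25a34 alone reached the floor, at 8.21 and 7.86. Slc25a45 was below the floor but had the second largest positive difference of the family, 5.26 to 7.07, 3.52-fold higher with DF. Its control value was shared by 43 genes. Slc25a35 was at 6.22 and 6.92 and Slc25a47 at 4.73 and 5.29, whereas Slc25a53 was at 4.69 in the control and listed at 0 with DF. Slc25a43, Slc25a48 and Slc25a54 were listed at 0 in both. Below the floor, 4 members in all were higher by 1.5-fold or more (Slc25a23, Slc25a29, Slc25a35 and Slc25a45) and 2 were lower (Slc25a24 and Slc25a32). These are not counted among the 5. Low genes passed this limit often: without a floor 34.2% of all genes above 0 in both libraries did, against 21.1% at the floor. The 34.2% also includes the genes at the floor, so it understates the share among genes below the floor.

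The remaining transport and import genes of mitochondria were mostly within 1.5-fold, less so in the pyruvate carrier and sideroflexin list. Among all genes at the floor, 10.2% were higher and 10.9% lower. Of 7 pyruvate carrier and sideroflexin genes 6 reached the floor, with 2 higher and 1 lower. Mpc1, a subunit of the pyruvate carrier, was 1.92-fold higher with DF (9.79 to 10.73), while its partner Mpc2 was at 10.40 and 10.41. Sfxn5, at 7.28 and 8.18 and so just at the floor in the DF library only, was 1.87-fold higher, Sfxn3 1.65-fold lower, and Sfxn1, the serine transporter, was at 12.96 and 12.66. Of 12 listed genes for the import of carriers 11 reached the floor, with 2 higher, the small chaperones Timm10 (1.76-fold) and Timm8a1 (1.55-fold), and 0 lower. Timm22, the channel that inserts carriers, was at 12.30 and 12.24, and Timm13, a chaperone partner, at 11.45 and 11.43. The 3 outer-membrane pores Vdac1, Vdac2 and Vdac3 differed by 0.09 to 0.20 log2 units; Vdac2 was at 12.35 and 12.44, and Vdac1 at 11.78 and 11.97. Of 5 calcium uniporter genes and 2 ABC transporters at the floor, 0 were beyond 1.5-fold; Mcur1 was at 10.15 and 10.59, Smdt1 at 9.42 and 9.41, Abcb10 at 8.68 and 9.19, and Abcb6 at 8.16 and 8.26.

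Further lists hold ATP synthase genes and genes common to all mitochondria, to be read beside the same 10.2% and 10.9% of all genes. Of 16 nuclear ATP synthase genes, all at the floor, 2 were higher, Atp5k (1.72-fold) and Atp5g1 (1.63-fold), and 0 lower, with a median of 0.14. Atp5g3, the most abundant, was at 16.84 and 17.01, and Atp5b at 13.73 and 14.10. Of 10 general mitochondrial genes 9 reached the floor, with Cycs, cytochrome c, 1.67-fold higher (11.57 to 12.31), 0 lower and a median of 0.19. Immt, of the cristae junctions, was at 14.11 and 14.36, and Phb2, a prohibitin, at 13.60 and 13.82. The medians of these lists and of the carrier family were not tested against each other.

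**Figure D4:**
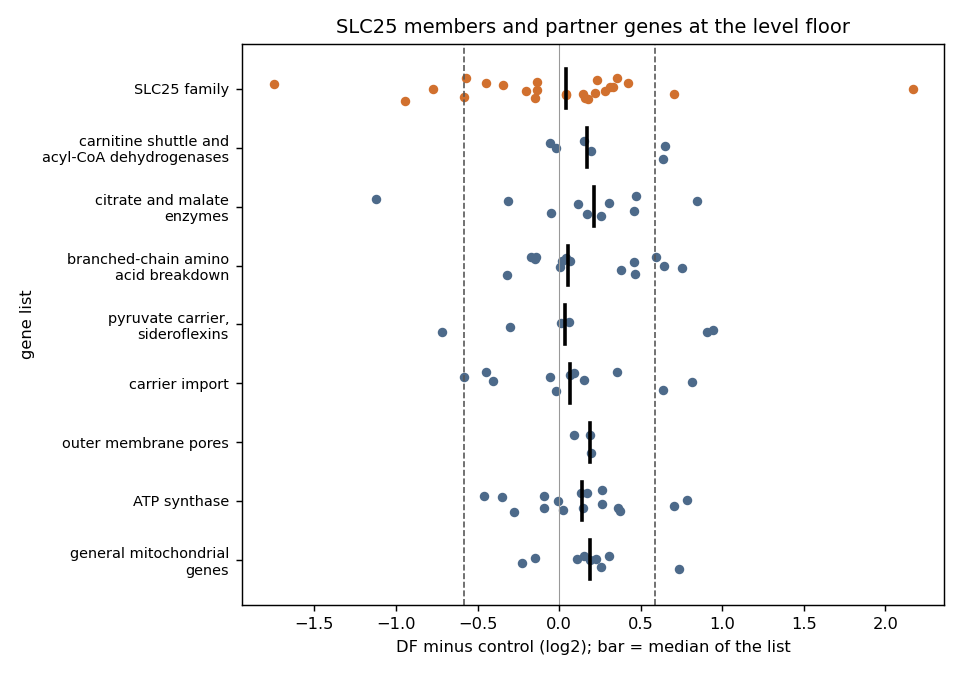
DF minus control (log2, x axis) of each gene at the level floor in the SLC25 family (orange) and in 8 lists of partner genes (blue, y axis); black bars are list medians and dashed lines mark 1.5-fold. The family's median of 0.04 lies near 0; its outermost points, Slc25a20 at 2.17 and Slc25a37 at -1.75, reached the floor in 1 library only.

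The members are spread over the genome, and 4 adjacent pairs with no coding gene between them stand within 50 kb of each other. Slc25a24 and Slc25a54 lie on the plus strand of chromosome 3 with 6461 bases between them, and Slc25a41 and Slc25a23 on the minus strand of chromosome 17 with 2056 bases between them. Slc25a43 and Slc25a5 share the plus strand of chromosome X, 18448 bases apart. In each of these 3 pairs one gene was above 0 in both libraries and its neighbour was listed at 0 in both. In the fourth pair, Slc25a29 and Slc25a47 on chromosome 12, the gene bodies point away from each other with 162 bases between them, and both were below the floor with a higher value under DF. Slc25a20, with 9 exons, occupies chromosome 9 from 108662088 to 108684641 (plus strand), and Slc25a44 occupies chromosome 3 from 88410498 to 88425139 (minus strand), with 4 exons. Slc25a37 is found on chromosome 14 from 69241848 to 69285112 (minus strand), Slc25a13 on chromosome 6 from 6041218 to 6217173 (minus strand) and Slc25a40 on chromosome 5 from 8422850 to 8454797 (plus strand), all on GRCm38. The last 500 bases of these 5 transcripts overlap no exon of another gene and share no 75-base word with one. Besides Slc25a26, end overlaps with an opposite-strand gene were found for Slc25a18 (Atp6v1e1), Slc25a21 (Pax9) and Slc25a35 (Rangrf).

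Promoter sequences from RefSeq (GRCm38.p6) were matched for 36 of the 47 members. Of the 5 members beyond 1.5-fold, the 3 matched ones are shown, Slc25a20, higher with DF, and Slc25a13 and Slc25a40, lower with DF; Slc25a37 and Slc25a44 are named only. The bases lie before the annotated gene body, 5′ to 3′ on the gene's strand, at chr9:108661886-108662087 (plus), chr6:6217174-6217423 (minus) and chr5:8422588-8422837 (plus). Capitals mark the motif matches described after them.
Slc25a20: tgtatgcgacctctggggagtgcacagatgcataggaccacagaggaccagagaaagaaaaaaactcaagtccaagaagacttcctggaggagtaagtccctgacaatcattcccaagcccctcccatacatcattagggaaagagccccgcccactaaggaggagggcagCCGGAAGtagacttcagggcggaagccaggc
Slc25a13: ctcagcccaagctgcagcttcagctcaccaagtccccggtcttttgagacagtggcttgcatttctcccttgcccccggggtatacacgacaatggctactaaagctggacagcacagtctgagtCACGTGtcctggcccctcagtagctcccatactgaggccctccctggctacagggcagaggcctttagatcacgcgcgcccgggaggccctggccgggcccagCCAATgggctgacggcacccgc
Slc25a40: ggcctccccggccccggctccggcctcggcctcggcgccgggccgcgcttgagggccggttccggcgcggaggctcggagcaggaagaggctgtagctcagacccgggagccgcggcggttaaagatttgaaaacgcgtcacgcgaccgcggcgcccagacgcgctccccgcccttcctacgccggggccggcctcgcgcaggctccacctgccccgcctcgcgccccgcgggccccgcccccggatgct
The 250 bases before the RefSeq start were searched on both strands for 9 motifs. Slc25a20 held the GABP/ETS motif CCGGAAG, present in 6 of the 36 members' promoters (16.7%) and in 6.91% of all 32851 promoters. Slc25a13 held an E-box, CACGTG, which 6 of the 36 (16.7%) and 6.02% of all promoters hold, and a CCAAT box, CCAAT, which 17 of 36 (47.2%) and 33.8% of all hold. Slc25a40 held none of the 9. The ERR element TCAAGGTCA, the NRF1 core GCGCATGCG and the YY1 motif AAGATGGCG were in 0 of the 36, and in 0.387%, 1.45% and 0.606% of all promoters. The nuclear receptor half-site AGGTCA, which lies within the ERR element, was in 4 of the 36 (11.1%) and 14.02% of all. The CRE TGACGTCA and the SREBP motif TCACNCCAC were in 1 member promoter each, and in 1.55% and 1.05% of all. The promoters of the members had a median GC content of 59.2%, against 52.4% for all promoters.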

How the data were processed

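The authors deposited 1 file per library with a gene symbol and a log2 value. Bowtie2, edgeR and the build mm10 are named in the submitters' processing notes. Their versions are not stated in those notes or other labels, nor are the counter, strand handling or normalization. Per the labels' protocols, a Lexogen kit for transcript 3' ends was used on 500 ng of RNA, with single reads of 75 nt. From the deposited values, the highest 140 sorted values were identical and 97.9% of 12337 ranks lay within 0.1 log2 units, as after quantile normalization.

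Members and gene lists were chosen with earlier results of these data known. Differences are DF minus control with no pseudocount. A gene was examined at or above 8.18 (log2), the median of all values above 0, in at least 1 library, and counted at 1.5-fold. Every member enters the counts, and partner genes named by rule are those counted plus the 2 most abundant of each pathway list; 1 member and 1 partner gene that this rule names are not reported here. Cpt1a, Cpt1b, Cpt1c, Crat, Ucp1, Ucp2 and Ucp3 were named after their values were seen, and marker lists are given mainly by counts and sums. The lists held 13 mitochondrial-DNA genes under their mt- symbols, not analysed here because no row carries those symbols. Protein comparisons planned for related carriers were not made. Positions and 3' end overlaps came from GENCODE vM21 (GRCm38, the assembly of mm10), with the last 500 bases of 1 transcript per gene. Alternatives changed the floor, fold, centring and pseudocount. Python 3.11.15, pandas 2.3.3 and numpy 2.4.6 were used, and the size rule was tested on simulated data.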

Additional observations from a re-analysis of the deposited data

How the results depend on the processing

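No paired analysis was possible because each group is 1 library. The counts of members beyond 1.5-fold depended mostly on the level floor. The main values were 2 higher, 3 lower and a median of 0.04. With no floor, 6 were higher and 5 lower of 36, with a median of 0.17 (34.2% of all genes were then counted). With the floor required in both libraries, 1 was higher (Slc25a44) and 1 lower (Slc25a13) of 18, with a median of 0.15 (15.8% of all genes). With the floor at the upper quartile of 9.92, 1 was higher and 0 lower of 13 (16.5% of all genes); at 2-fold, 1 was higher (Slc25a20) and 1 lower (Slc25a37; 5.77% of all genes). Centring on the median of all genes, a pseudocount of 16 or 100, and a limit of 1.5 robust SDs of genes at the same level left 2 higher and 2 to 4 lower, where 21.3%, 20.4%, 15.6% and 15.6% of all genes were counted, in that order. Centring added Slc25a14, and the robust limit left out Slc25a13. Leaving out the members whose transcript ends overlap or share sequence with another gene, an alternative chosen after seeing the data, gave 2 higher and 3 lower of 23. These 2 counts could not change, since none of the 5 counted members was left out. The differences of the 5 counted members and the 7 others of the 8 most abundant kept their sign under centring and both pseudocounts. This outcome was fixed in advance, since a pseudocount cannot change a sign and centring shifted each difference by only 0.01 log2 units. In size, 30 of these alternative values lay within 0.1 log2 units of the main one, and 6, all of counted members, did not. With 1 library per group no replicate could be left out, and the unknown depth limits most of all the values below the floor.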
